A study of Mus musculus with 4 samples.

Results

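*Kitl* and *Kit*, which encode KIT ligand and its receptor, were examined in sorted spermatogonia of neonatal mice, as 2 of the 54920 genes with read counts. The pair was chosen by its counts in the same comparison, scaled to library size. The differences of *Kitl* and *Kit* between genotypes are therefore a description and were not tested. Testis cells with the ID4-EGFP reporter were sorted at postnatal day (P) 8, and total RNA was sequenced from 2 control and 2 *Cnot3*-cKO libraries. Every mouse carried floxed *Cnot3* alleles and the *Id4-eGfp* reporter and was injected with 4-hydroxytamoxifen (4-OHT) from P1 to P3. Only *Cnot3*-cKO mice also carried *Ddx4*-creER, a tamoxifen-inducible Cre under a germ cell promoter, although the sample labels call the controls wild-type. The strain is not given in the sources used here. The study describes its replicates as biological, and more of them per group than the 2 libraries used here. The labels do not say which animals each library came from, so each p-value covers only the spread between these samples. That spread was estimated with information shared across genes. Control libraries held 40957899 and 43378493 counted reads, and *Cnot3*-cKO libraries held 22192964 and 28019626.

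KIT is a receptor tyrosine kinase at the cell surface. Its ligand, also called stem cell factor, is made as a membrane protein that proteases can release, and binding pairs receptors whose tails then recruit adaptors and kinases of the PI3K-AKT and RAS-MAPK branches. In the postnatal testis, Sertoli cells are a known source of the ligand, and KIT marks spermatogonia that have begun to differentiate. Leydig cells, mast cells and melanocytes are also known to carry the receptor, and endothelial cells can make the ligand.

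The target of the deletion was read before the pair. *Cnot3*, which encodes a subunit of the CCR4-NOT deadenylase complex, had 2362 and 2114 reads in control libraries and 435 and 571 in *Cnot3*-cKO libraries. Its level was 54.4 ± 5.94 CPM in controls (the usual depth-scaled read count, here on TMM-scaled library sizes), against 19.6 ± 0.521 CPM in *Cnot3*-cKO cells (SD, n = 2 each). The log2 fold change was -1.48 (SE 0.13, edgeR adjusted p = 1.48e-05), in the direction the labels give. Some *Cnot3* reads remained, and gene counts do not show whether they came from deleted or intact alleles.

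*Kitl* spans chr10:100015630-100100416 of GRCm38 on the forward strand, with 6 annotated transcripts, 4 of them coding, and 5911 bases of merged exons. *Kit* spans chr5:75574916-75656722 on the forward strand, with 8 transcripts, 2 of them coding, and 8911 bases of merged exons. No other annotated gene overlaps either locus. Each gene has an alternative coding segment that changes the product. In *Kitl*, exon 6 of 10 in the transcript Kitl-202 (chr10:100080857-100080940, 84 bases) is absent from Kitl-201. This exon is known to encode the main cleavage site from which soluble ligand is released. In *Kit*, the last 12 bases of exon 9 of 21 in Kit-201 (chr5:75639147-75639158) are absent from Kit-204, which removes residues just outside the membrane. The segments are printed because the counts sum over transcripts with and without them, so the values given for either gene do not separate these isoforms.
Kitl exon 6: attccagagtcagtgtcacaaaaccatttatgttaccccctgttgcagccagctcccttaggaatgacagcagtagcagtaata
Kit exon 9 end: gtaacaacaaag

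The stretches around the start sites that RefSeq lists for the genes, 250 bases before to 50 after on GRCm38.p6, are printed as the sequence at the head of each gene, although no measurement here was made on them. RefSeq lists 1 start for *Kitl* and 2 for *Kit*. A single window is printed for each gene, so positions in *Kit* refer to the start of that window only. The *Kitl* window is chr10:100015571-100015870 and the *Kit* window chr5:75574737-75575036, both on the forward strand. The GENCODE gene starts lie inside both windows, but upstream of the RefSeq start sites from which positions are given. Capitals mark matches, on either strand, to CANNTG (the E-box), TATAAA (the TATA box) and GGGCGG (the GC box). TGACGTCA, the cyclic AMP response element, was searched as well.
Kitl: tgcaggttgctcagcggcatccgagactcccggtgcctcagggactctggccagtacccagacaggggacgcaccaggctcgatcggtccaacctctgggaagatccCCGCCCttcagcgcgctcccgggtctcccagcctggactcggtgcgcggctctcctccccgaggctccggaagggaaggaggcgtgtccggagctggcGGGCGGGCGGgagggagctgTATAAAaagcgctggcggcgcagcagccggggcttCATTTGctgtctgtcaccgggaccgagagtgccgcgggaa
Kit: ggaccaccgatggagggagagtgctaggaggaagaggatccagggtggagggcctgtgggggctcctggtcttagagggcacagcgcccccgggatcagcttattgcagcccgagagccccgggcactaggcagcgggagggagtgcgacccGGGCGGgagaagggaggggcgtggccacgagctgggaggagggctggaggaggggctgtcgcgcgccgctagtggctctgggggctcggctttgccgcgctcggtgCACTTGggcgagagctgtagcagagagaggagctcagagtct

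Both windows were rich in G and C, at 68.7% for *Kitl* and 69% for *Kit*. The *Kitl* window held a TATA box at -25 from the start site. This motif was found in 14.2% of 27025 promoters of the same length. The shares of promoters count a match anywhere in the window, on either strand, and not at a given position. The *Kit* window held none. The GC box was matched 3 times in *Kitl*, at -143 on the reverse strand and at -45 and -41, the latter pair overlapping, and 1 time in *Kit*, at -98. It was found in 35.9% of promoters. An E-box match lay after each start, at position 11 in *Kitl* and 9 in *Kit*, and 72.1% of promoters held this motif. The cyclic AMP response element was in neither window and in 1.88% of promoters. A match describes the letters only and does not show that a factor binds there.

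*Kitl*, the ligand, was low in both control libraries and high in both *Cnot3*-cKO libraries. It had 1481 and 1328 reads in controls, or 36.8 and 31.6 CPM. In *Cnot3*-cKO libraries it had 3302 and 4573 reads, or 146 and 160 CPM, although these libraries held fewer reads in all. The groups did not overlap, and their means were 34.2 ± 3.68 and 153 ± 9.85 CPM (SD, n = 2 each). The log2 fold change was 2.16 (SE 0.11), a level 4.47 times that of controls.

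*Kit*, the receptor, differed in the opposite direction. It had 10289 and 11657 reads in controls, or 255 and 277 CPM. The *Cnot3*-cKO libraries had 2697 and 3942 reads, or 119 and 138 CPM. Again the groups did not overlap, but 6857 of 23952 tested genes also had both *Cnot3*-cKO libraries below both controls. The group means of *Kit* were 266 ± 15.3 and 128 ± 13.1 CPM (SD, n = 2 each). The log2 fold change was -1.05 (SE 0.09), a level of 0.482 relative to controls and close to the 2-fold limit used for calls. It was under that limit with library size only (-0.99), the scaling by which the pair was chosen, with scaling to the germ cell list (-0.89), without *Cnot3*-cKO replicate 1 (-0.96) and without control replicate 2 (-0.99). In bulk samples such as these, fewer cells of a type and less RNA per cell cannot be told apart.

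Divided by exon length, the levels of ligand and receptor can be set side by side, but only roughly. The divisor is the merged exon length, 5911 bases for *Kitl* and 8911 for *Kit*. The merged length of *Kit* includes transcripts with retained introns, while its coding transcripts have 5214 and 5241 bases. The longest coding *Kitl* transcript has 5648. The order of the pair and their percentiles depend on these lengths, but the fold difference of each gene between groups does not. *Kit* stood at 28.7 and 31.1 CPM per kilobase in controls, above *Kitl* at 6.22 and 5.34. On these lengths the order was turned in *Cnot3*-cKO libraries, with *Kitl* at 24.7 and 27.0 CPM per kilobase and *Kit* at 13.4 and 15.4. Within each library, the ratio of *Kitl* to *Kit* per kilobase was 0.217 and 0.172 in controls, against 1.85 and 1.75 in *Cnot3*-cKO cells. This ratio needs no scaling between libraries, and its mean was 9.25 times higher in *Cnot3*-cKO cells. Ranked by CPM per kilobase among 23400 genes, *Kitl* was at percentiles 66.5 and 63.6 in controls, against 90.3 and 91.4 in *Cnot3*-cKO libraries. *Kit* was at percentiles 91.5 and 91.9 in controls, against 81.2 and 83.7 in *Cnot3*-cKO libraries, so both transcripts were above the median gene in every library.

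**Figure D1:**
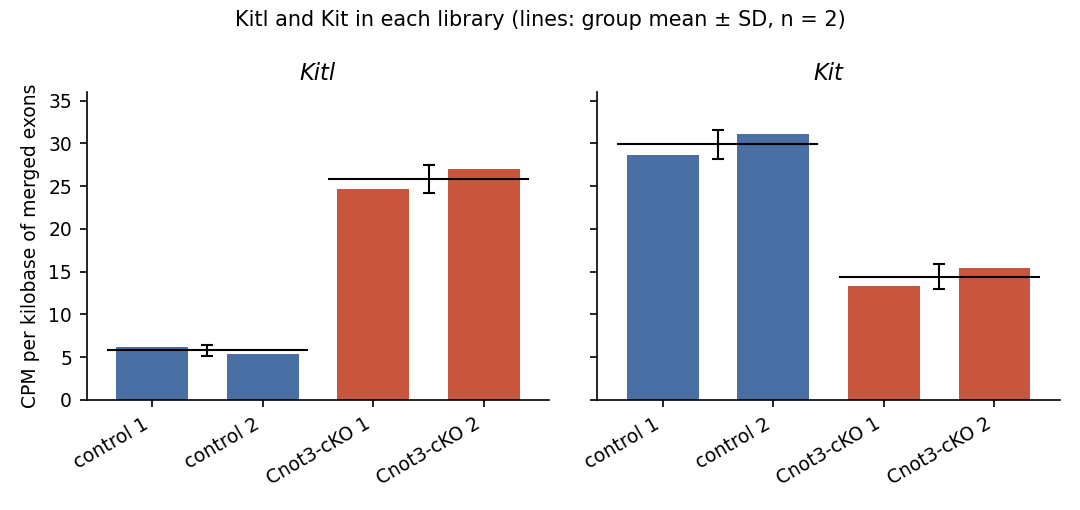
Bars give the level of *Kitl* (left) and *Kit* (right) in each library, in CPM per kilobase of merged exons. Lines with error bars are group means ± SD (n = 2). *Kitl* goes from a mean of 5.78 in controls to 25.8 in *Cnot3*-cKO libraries, and *Kit* from 29.9 to 14.4.

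Transcripts of Sertoli cells, the known source of the ligand in the tubule, were also higher in *Cnot3*-cKO libraries. Across all 23952 tested genes, 965 (4.03%) were called higher and 176 (0.735%) lower where a call needed more than a 2-fold difference and an edgeR adjusted p below 0.01. These shares are the background for the counts of every list. The count of lower genes over all tested genes was 87 with scaling to the germ cell list, and 285 with no expression filter, where 39712 genes were tested. Of 16 Sertoli cell genes, 15 were called higher, with a median log2 fold change of 1.76 against 0.01 over all tested genes. Their summed level was 442 and 454 CPM in controls, against 1342 and 1333 CPM in *Cnot3*-cKO libraries. *Clu*, a secreted chaperone, rose from 148 ± 4.78 to 479 ± 0.176 CPM (SD, n = 2 each). It was the list's most abundant gene (by reads over all libraries, not per length, here and for each list), but not by the control mean. *Amh*, the hormone of immature Sertoli cells, rose from 3.13 ± 0.0407 to 19.3 ± 1.34 CPM (log2 fold change 2.62, SE 0.19, edgeR adjusted p = 4.21e-06). *Amhr2*, the receptor of this hormone, and *Aard* had log2 fold changes of 1.99 and 1.98, both called higher. *Rhox5* was the list's exception, at a log2 fold change of 0.18, and is named after its value was seen. None of the 16 genes was at or under 3 reads in every library, the floor of detection used here.

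Set against these genes within the same library, *Kitl* gave different pictures. There were 8.32 and 6.96 *Kitl* reads per 100 reads of the Sertoli cell list in controls, against 10.9 and 12.0 in *Cnot3*-cKO libraries. Per read of *Clu* there were 0.242 and 0.218 *Kitl* reads in controls, against 0.304 and 0.333 in *Cnot3*-cKO libraries, and per read of *Wt1* 2.51 and 2.75 against 3.66 and 3.72. For *Sox9* the groups overlapped, with 9.68 and 8.68 against 7.77 and 9.92. For *Amh* the order was opposite, with 11.8 and 9.98 against 7.96 and 7.90. *Kitl* was thus higher relative to some Sertoli cell genes, lower relative to *Amh* and not separated relative to *Sox9*. All 4 of these genes were picked for the ratios without a written rule, when the data could already be seen, and *Wt1* and *Sox9*, transcription factors of Sertoli cells, also fall outside the rule for named genes. *Amh* had the largest change of the list (log2 fold change 2.62). The part of Sertoli cell RNA in the *Kitl* difference was not tested.

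Endothelial cells can make the ligand too. Of 6 tested genes of an 8-gene list, 2 were called higher, and the median log2 fold change was 0.46, or 0.28 without *Cnot3*-cKO replicate 2 and 0.69 without control replicate 1. The summed level was 26.0 and 23.2 CPM in controls, against 38.0 and 43.6 CPM in *Cnot3*-cKO libraries. *Tek*, the angiopoietin receptor and most abundant gene of the list, was not called (log2 fold change 0.48, SE 0.20, edgeR adjusted p = 0.118, or 0.30 without control replicate 2). *Pecam1*, an adhesion protein, and *Kdr*, a VEGF receptor, were called higher at log2 fold changes of 1.18 and 1.17. *Kdr* lost its call without *Cnot3*-cKO replicate 1 (0.996, edgeR adjusted p = 0.0227) and without control replicate 2 (1.09, edgeR adjusted p = 0.0121). There were 141 and 136 *Kitl* reads per 100 reads of the list in controls, against 384 and 366 in *Cnot3*-cKO libraries. The part of endothelial RNA was not tested.

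**Figure D2:**
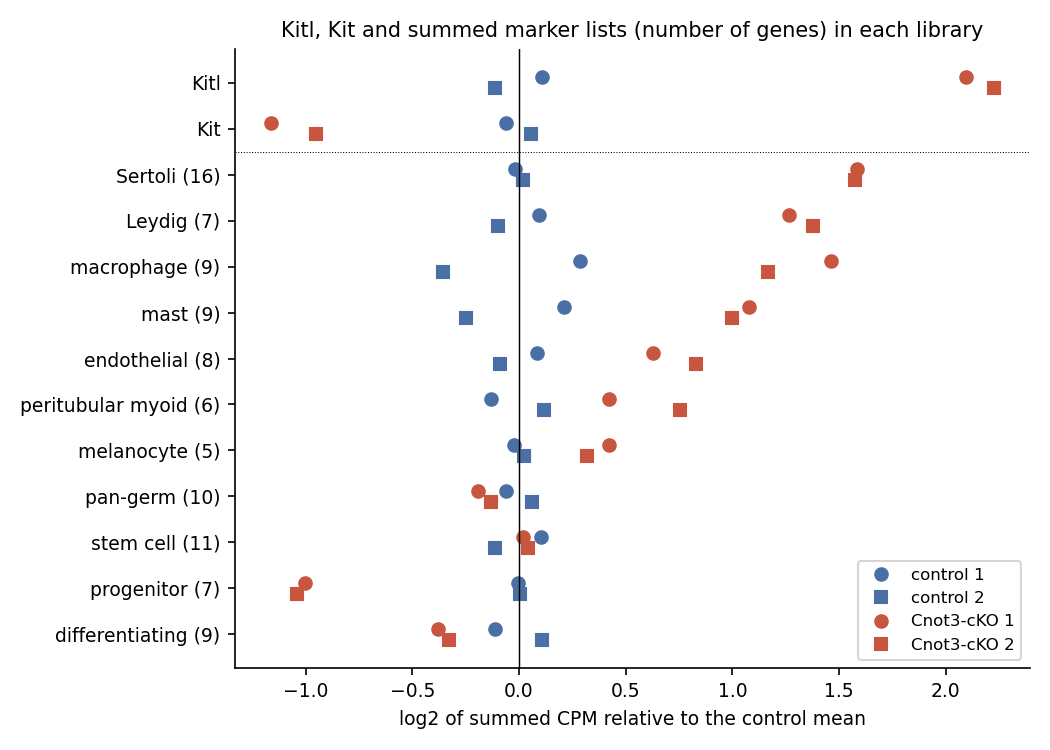
Each row shows the CPM of *Kitl* or *Kit*, or the summed CPM of a marker list, in each library as log2 relative to the control mean; the number of genes is in parentheses. Circles are replicates numbered 1 and squares those numbered 2. The Sertoli list (control mean 448 CPM, *Cnot3*-cKO mean 1337 CPM) lies far to the right with *Kitl*, and the progenitor list (560 and 276 CPM) to the left with *Kit*.

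For *Kit*, germ cells are the first setting to read. Of 10 genes shared by germ cells of all stages, none was called in either direction, 1 (*Piwil2*, named after its value was seen) was lower with no limit on the fold change, and the median log2 fold change was -0.06, or -0.24 without control replicate 1, and was above 0 with library size only (0.0063) and with scaling to this list itself (0.10). Their summed level was 5116 and 5568 CPM in controls, against 4675 and 4883 CPM in *Cnot3*-cKO libraries. *Dazl*, an RNA-binding protein and the most abundant of them, had 2487 ± 209 and 2144 ± 169 CPM (SD, n = 2 each; log2 fold change -0.21, edgeR adjusted p = 0.0840). That p depended on the expression filter. With no such filter and every library kept, *Dazl* was at -0.24 (edgeR adjusted p below 0.01), so lower with no fold limit. The value of *Dazl* also moved with the libraries used. It was -0.30 without control replicate 1, -0.13 without control replicate 2 and -0.14 without *Cnot3*-cKO replicate 1. With scaling to the list itself, *Dazl* was at -0.05. Per 100 reads of this list there were 4.99 and 4.98 *Kit* reads in controls, against 2.55 and 2.82 in *Cnot3*-cKO libraries. *Kit* was thus also lower relative to germ cell RNA as this list measures it.

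Genes of differentiating spermatogonia, the stage that KIT marks, were divided. Of 9 genes, 4 were called lower and none higher, with a median log2 fold change of -0.57. *Stra8*, induced by retinoic acid at the start of differentiation, fell from 100 ± 18.2 to 42.9 ± 7.53 CPM (log2 fold change -1.22, SE 0.14, edgeR adjusted p = 0.000130). The transcription factor *Dmrtb1*, the meiotic regulator *Meioc* and the protease *Prss50* had log2 fold changes of -1.54, -1.26 and -1.92. *Meioc* was at -0.88 without control replicate 2 and then missed the fold limit, and *Prss50* was at -1.22 with an edgeR adjusted p of 0.0267. *Prss50* also lost its call with DESeq2 (-1.96, adjusted p = 0.108), upper quartile scaling and library size only. Without *Cnot3*-cKO replicate 2, *Prss50* was at -3.01. *Ccnd2*, a cyclin and the list's most abundant gene, was not called (0.26, edgeR adjusted p = 0.0989), and was at 0.42 without control replicate 1 (edgeR adjusted p = 0.000561, higher with no fold limit), at 0.12 without control replicate 2 and at 0.42 with scaling to the germ cell list. The summed level of the list was 727 and 847 CPM in controls, against 605 and 626 CPM in *Cnot3*-cKO libraries, with no gene at the floor.

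*Kit* reads per *Stra8* read were 2.93 and 2.45 in controls, against 3.17 and 2.85 in *Cnot3*-cKO libraries, so these ranges overlapped. Per read of *Sohlh1*, a transcription factor known to act on *Kit*, they were 2.35 and 1.90 against 1.09 and 1.18. Per 100 reads of the whole differentiating list they were 35.2 and 32.7 against 19.7 and 22.0. Relative to *Stra8* the groups were thus not separated, and relative to *Sohlh1* and the whole list they were. *Stra8* and *Sohlh1* were picked for these ratios without a written rule, when the data could already be seen. The part of differentiating cells in the *Kit* difference was not tested.

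Progenitor genes were mostly lower, while stem cell genes went in both directions. Of 7 progenitor genes, 5 were called lower. The median of all 7 was -1.09 on the log2 scale and the summed level 559 and 561 CPM in controls, against 280 and 273 CPM in *Cnot3*-cKO libraries. *Lin28a*, an RNA-binding protein and the most abundant of them, fell from 415 ± 7.59 to 195 ± 5.51 CPM (log2 fold change -1.09, SE 0.08, edgeR adjusted p = 3.85e-06), and was at -0.93, under the fold limit, with scaling to the germ cell list. The others were *Neurog3* (-1.81), *Rarg* (-1.37), *Sox3* (-1.13) and *Nanos3* (-1.07), named after their values were seen. Of 11 stem cell genes, 2 were called higher and none lower, with a median of 0.54. These were *Id4* (1.04), the gene whose reporter was used for the sort, and *Eomes* (1.39), both named after their values were seen. With no fold limit, 5 were higher and 1 lower. The lower gene was *Zbtb16*, a transcription factor, from 400 to 227 CPM (log2 fold change -0.82, edgeR adjusted p = 0.000193). It was the most abundant of the list over all libraries, but not by the *Cnot3*-cKO mean. *Pax7*, also named after its value was seen, was at -0.99 and not called (edgeR adjusted p = 0.0872). The list's summed level was 935 and 804 CPM in controls, against 881 and 896 CPM in *Cnot3*-cKO libraries. The part of these stages was not tested.

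**Figure D3:**
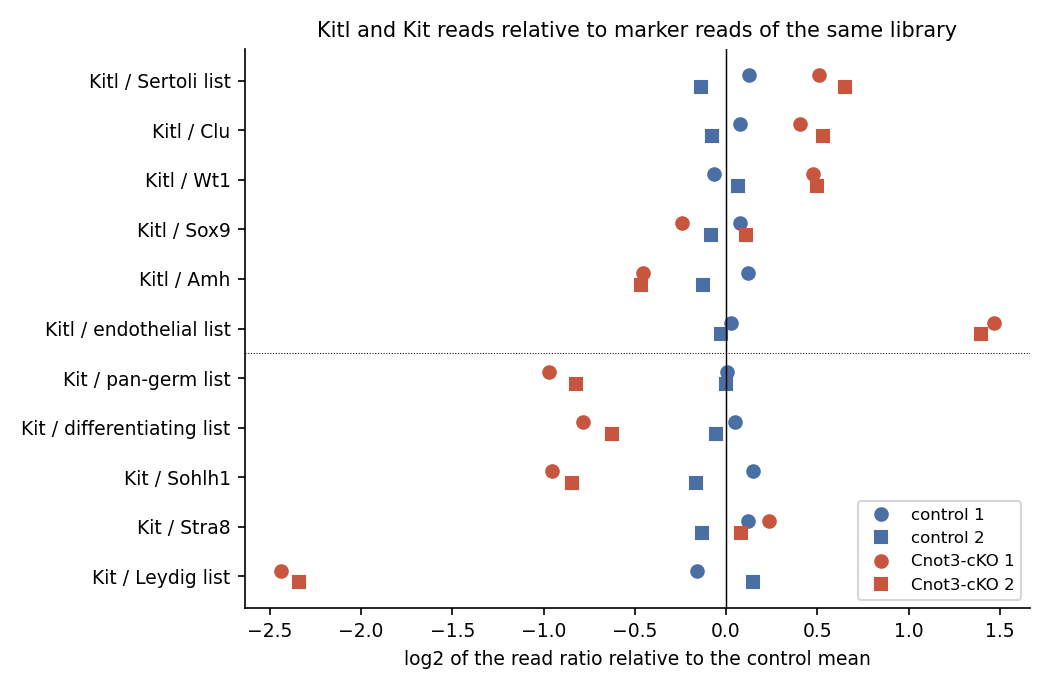
Each row gives reads of *Kitl* or *Kit* divided by reads of a marker gene or list in the same library, as log2 relative to the mean of the control ratios. *Kitl* relative to *Sox9* and *Kit* relative to *Stra8* overlap between groups, and *Kit* relative to the Leydig list lies farthest to the left, at a mean of 14.8 *Kit* reads per 100 list reads against 77.6 in controls.

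Somatic cells that carry KIT were examined in the same way. Of 6 tested Leydig cell genes, 4 were called higher, with a median log2 fold change of 1.28. The summed level of the 7 genes was 368 and 323 CPM in controls, against 831 and 897 CPM in *Cnot3*-cKO libraries. *Hsd3b1*, a steroid dehydrogenase and the most abundant, rose from 267 ± 27.4 to 684 ± 39.6 CPM (SD, n = 2 each). *Cyp11a1* and *Cyp17a1*, enzymes of androgen synthesis, and *Lhcgr*, the receptor of luteinizing hormone, had log2 fold changes of 1.20, 1.49 and 1.57, all called higher. *Insl3*, a defining Leydig cell hormone, had 0 reads in every library. *Kit* was lower in the libraries in which the Leydig cell genes were higher, with 69.4 and 85.9 *Kit* reads per 100 list reads in controls, against 14.3 and 15.3 in *Cnot3*-cKO libraries.

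Mast cell and melanocyte genes were scarce. Of 9 mast cell genes, 3 were tested and 2 called higher, with a median log2 fold change of 1.02 and a summed level of 15.05 and 10.96 CPM in controls, against 27.4 and 26.0 CPM in *Cnot3*-cKO libraries. The most abundant, *Hpgds*, a prostaglandin synthase, was at a log2 fold change of 1.02, or 0.70 without control replicate 2 (edgeR adjusted p = 0.0189), where its call was lost. The *Hpgds* call was also lost with upper quartile scaling (edgeR adjusted p = 0.0108) and with no expression filter (0.997, under the fold limit). *Hdc*, which makes histamine, was at 1.13, or 0.99 without *Cnot3*-cKO replicate 1, just under the fold limit. The defining genes *Tpsab1*, *Fcer1a* and *Ms4a2* had at most 3 reads in any library. *Cpa3* was tested and not called (log2 fold change 0.78, edgeR adjusted p = 0.499). Too low to be tested were *Tpsb2*, with 13 and 6 reads in controls against 2 and 6, *Cma1*, with 8 and 2 against 2 and 2, and *Mcpt4*, with 0 and 0 against 0 and 4. *Cpa3*, *Tpsb2*, *Cma1* and *Mcpt4* were named after their values were seen. The summed level of 5 melanocyte genes was 7.87 and 8.13 CPM in controls, against 10.7 and 9.99 CPM in *Cnot3*-cKO libraries. Only *Pmel*, a pigment granule protein, was tested, at a log2 fold change of 0.24 (SE 0.19, edgeR adjusted p = 0.437), or 0.40 with scaling to the germ cell list. This value stands for 1 gene only, since with no expression filter the melanocyte median was 2.59 over genes that included *Mlana*, with 0 and 2 reads in controls against 14 and 7, and *Tyrp1*, with 0 and 4 against 8 and 8, both named after their values were seen. The part of Leydig cells, mast cells and melanocytes in the *Kit* difference was not tested.

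Macrophages and peritubular cells were read as other cells that a sort can retain. Of 9 macrophage genes, 7 were called higher, with a median log2 fold change of 1.21, and the sums were 206 and 132 CPM in controls, against 465 and 379 CPM in *Cnot3*-cKO libraries. The most abundant, *Mrc1*, the mannose receptor, rose by 1.39 on the log2 scale. Of 6 peritubular myoid genes none was called. Their median was 0.53, or 0.33 without *Cnot3*-cKO replicate 2 and 0.84 without control replicate 2 and 0.80 with thinning, and their sums were 13.9 and 16.5 CPM against 20.4 and 25.7 CPM. *Acta2*, smooth muscle actin, was the most abundant over all libraries, but not by the control mean. Its log2 fold change was 0.94 (edgeR adjusted p = 0.00828). It passed the fold limit without *Cnot3*-cKO replicate 1 (1.12), with library size only, with thinning and with scaling to the germ cell list. The part of these cells in the values of *Kitl* and *Kit* was not tested.

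The other genes of the KIT pathway were counted over 8 lists by role, 77 genes without the pair, of which 76 were tested. Of these, 6 (7.89%) were called higher, against 4.03% of all tested genes, and 1 (1.32%) lower, against 0.735%. With no limit on the fold change, 11 (14.5%) were higher against a background of 6.21%, and 9 (11.8%) were lower against 4.70%. The count of lower genes was not stable, with 3 under scaling to the germ cell list, 6 with library size only and without either *Cnot3*-cKO library, and 17 without control replicate 1. The median over the 76 genes was -0.14. Most pathway transcripts thus did not pass the test. No gene called was from the PI3K-AKT or RAS-MAPK branches, but at the shares over all tested genes few calls would fall in lists of their size. With no fold limit, 5 of 17 PI3K-AKT genes (29.4%) were lower and none higher, against 4.70% of all tested genes lower.

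Of the 2 proteases known to release KIT ligand from the membrane, neither was called. *Adam17*, the sheddase, was at 168 ± 1.46 CPM in controls, against 147 ± 5.33 CPM in *Cnot3*-cKO cells (SD, n = 2 each; log2 fold change -0.19, or -0.03 with scaling to the germ cell list; edgeR adjusted p = 0.142). *Mmp9*, a matrix metalloprotease, was higher only with no fold limit, at 8.26 ± 0.324 against 14.7 ± 0.335 CPM (log2 fold change 0.83, SE 0.18, edgeR adjusted p = 0.00558). *Mmp9* was named after its value was seen.

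The receptors most related to KIT, its family of 4 others, had a median log2 fold change of 0.88. Of the 4, 1 gene (25%) was called higher, against 4.03% of all tested genes. This gene was *Csf1r*, the receptor of macrophages, which also stands in the macrophage list. It rose from 33.0 ± 10.9 to 76.7 ± 10.8 CPM (log2 fold change 1.21, SE 0.18, edgeR adjusted p = 0.000677), and was at 0.91, under the fold limit, without control replicate 2. Of 6 tested ligands of these receptors, 2 (33.3%) were called higher, with a median of 0.37, or 0.24 with no expression filter. They were *Pdgfc*, at 2.94 ± 0.194 against 7.58 ± 1.48 CPM, and *Pdgfd*, at 2.56 ± 0.144 against 6.71 ± 0.189 CPM, both ligands of the PDGF receptors. Their log2 fold changes were 1.37 and 1.39, and *Pdgfc* lost its call without *Cnot3*-cKO replicate 2 (1.15, edgeR adjusted p = 0.0105). *Pdgfb*, the most abundant of these ligands, was not called at -0.13, and was at 0.03 with scaling to the germ cell list.

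Of 17 adaptors, phosphatases, kinases and STAT factors that act next to KIT, 1 (5.88%) was called higher and none lower. Over all tested genes 4.03% were called higher, so this share was near the background. The median log2 fold change of the list was -0.09. That median was 0.06 without control replicate 1 and with scaling to the germ cell list, so it has no stable sign. *Lyn*, a SRC family kinase of blood cells, rose from 4.23 ± 1.11 to 12.6 ± 2.76 CPM (log2 fold change 1.57, SE 0.25, edgeR adjusted p = 0.000879). The most abundant, the phospholipase *Plcg1*, was not called at -0.15, or 0.01 with scaling to the germ cell list and -0.25 or -0.06 with *Cnot3*-cKO replicate 1 or 2 left out. With no fold limit, the adaptor *Crkl* was also lower (-0.68) and the exchange factor *Sos2* higher (0.63), both named after their values were seen.

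The PI3K-AKT branch is the one best known downstream of KIT in spermatogonia. Of its 17 genes none was called, and the median log2 fold change was -0.31. With no fold limit, 5 (29.4%) were lower, against 4.70% of all tested genes, and none was higher. Among them were *Foxo1* (-0.87), *Akt1* (-0.55), *Pdpk1* (-0.41) and *Foxo3* (-0.37), named after their values were seen. This count was not stable, since with scaling to the germ cell list only 3 genes of all pathway lists together were lower. *Akt1* and *Pdpk1* encode kinases of the branch, and *Foxo1* and *Foxo3* the transcription factors that AKT restrains. The most abundant gene, the kinase *Mtor*, had 413 ± 12.6 and 333 ± 7.86 CPM (SD, n = 2 each; log2 fold change -0.31, edgeR adjusted p = 0.0132), and was at -0.15 with scaling to the germ cell list.

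Of 9 RAS-MAPK genes none was called with or without the fold limit, with a median of -0.31 that was -0.13 without control replicate 2. Medians of both branches were below 0 under each scaling tried, but with scaling to the germ cell list both were at -0.15.

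Of 13 negative regulators of KIT signalling, 2 (15.4%) were called higher, against 4.03% of all tested genes. The median log2 fold change of the list was 0.06. It was 0.04 without control replicate 1 and 0.12 without *Cnot3*-cKO replicate 1. With library size only it was 0.13, and with scaling to the germ cell list 0.22. *Ptpn6*, a phosphatase known to dephosphorylate KIT, rose from 3.64 ± 0.370 to 11.1 ± 2.38 CPM (log2 fold change 1.60, SE 0.23, edgeR adjusted p = 0.000529). The macrophage list had a median of 1.21, and which cells the *Ptpn6* reads came from was not tested. *Dusp6*, a phosphatase of ERK, rose from 57.0 ± 4.46 to 135 ± 2.47 CPM (log2 fold change 1.24, SE 0.10, edgeR adjusted p = 6.15e-06). The ubiquitin ligase *Cbl*, the most abundant, was not called (-0.23, edgeR adjusted p = 0.113). It was at -0.11 without control replicate 1, at -0.35 without control replicate 2 (edgeR adjusted p = 0.00355, lower with no fold limit) and at -0.08 with scaling to the germ cell list.

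Transcription factors that act on *Kit* or in lineages that need it numbered 8. Of these, 1 (12.5%) was called lower, against 0.735% of all tested genes. The median of the list was -0.37, or -0.24 without control replicate 2 and -0.21 with scaling to the germ cell list. *Gata2*, a factor of blood progenitors and mast cells, fell from 6.19 ± 0.496 to 2.19 ± 0.907 CPM (log2 fold change -1.48, SE 0.30, edgeR adjusted p = 0.00456). It lost its call without *Cnot3*-cKO replicate 1 (-1.13, edgeR adjusted p = 0.0131). *Zbtb16*, a repressor known to act on *Kit* in spermatogonia and the most abundant, also stands in the stem cell list. It had 400 ± 50.7 and 227 ± 21.9 CPM (SD, n = 2 each), lower with no fold limit (log2 fold change -0.82, SE 0.10, edgeR adjusted p = 0.000193). *Sohlh1*, set beside *Kit* among the differentiating genes, was not called at -0.18. The list ran from -1.48 to 1.59, so its median covers opposite directions. With no fold limit, 3 were lower and 1, *Etv5* (0.54, edgeR adjusted p = 0.00452), higher. *Gata1* (1.52, edgeR adjusted p = 0.0106) and *Tal1* (1.59, edgeR adjusted p = 0.0438), factors of blood cells, were not called. The last 3 genes were named after their values were seen, as was *Sohlh2* (-0.57), the other lower gene beside *Gata2* and *Zbtb16*.

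**Figure D4:**
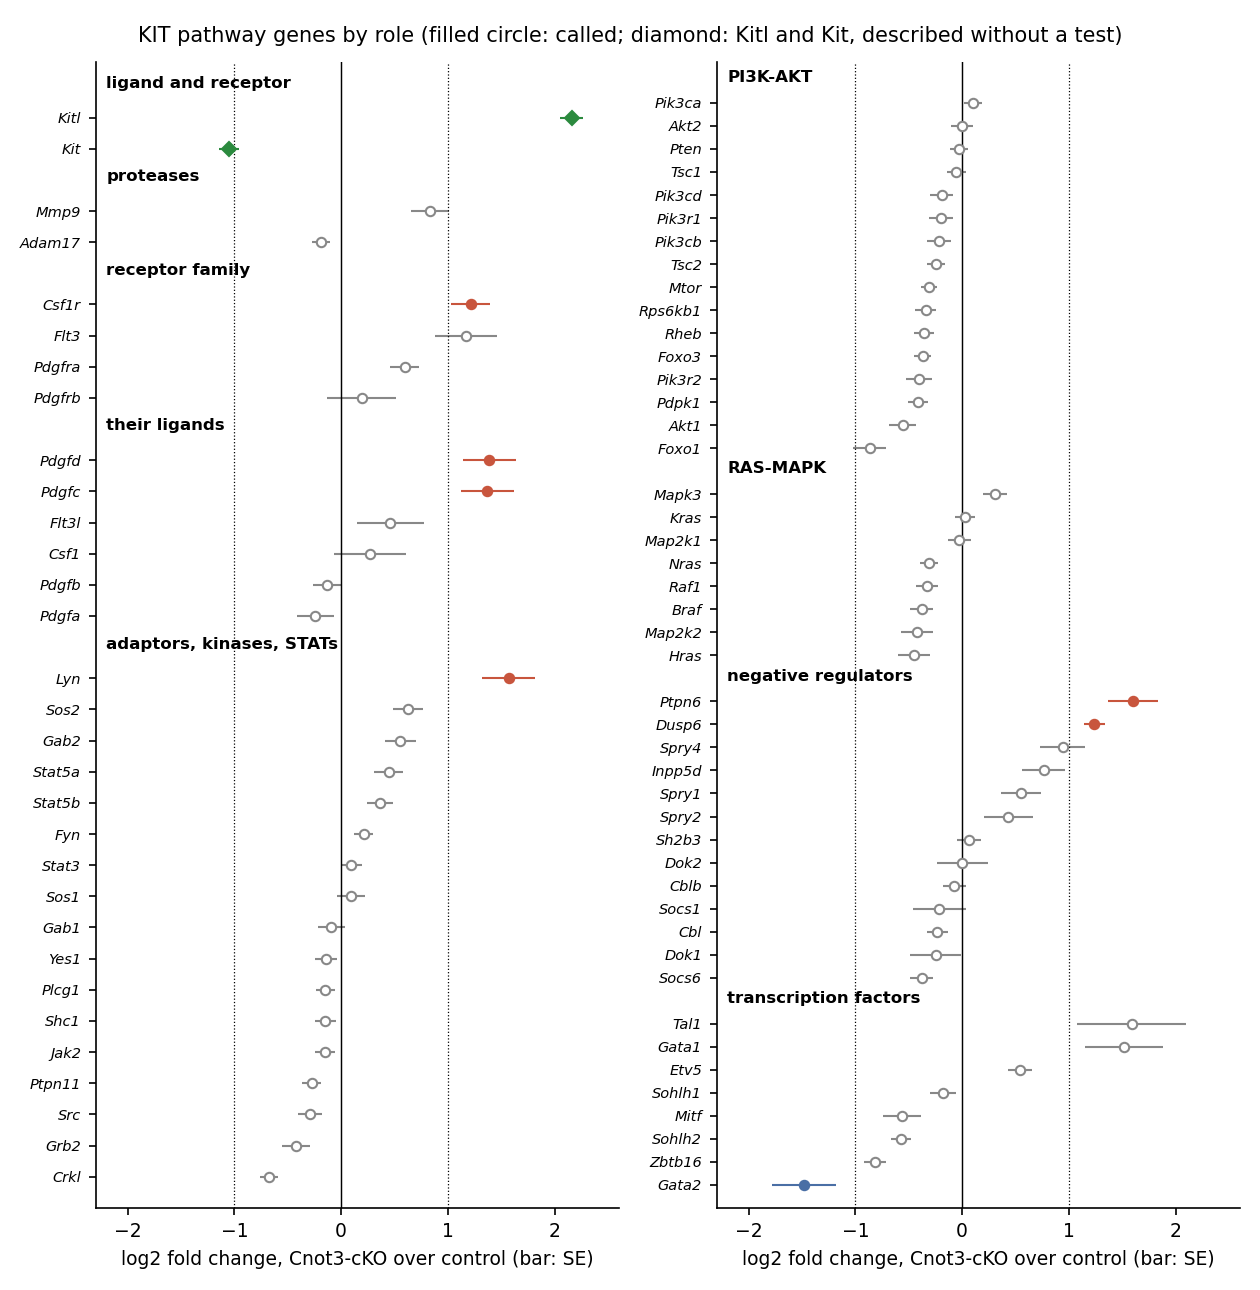
Circles give the log2 fold change of tested pathway genes with its SE, grouped by role, and diamonds those of *Kitl* (2.16) and *Kit* (-1.05), which were chosen by this comparison. Filled circles are genes called higher (red) or lower (blue), and dotted lines mark a 2-fold change. The PI3K-AKT genes run from -0.87 to 0.10, and none is filled.

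Genes with profiles most like that of each member were found by the root mean square distance of log2 CPM, centred over the 4 libraries, among 15519 genes. The nearest to *Kitl* were *Mylk3* (0.0528), *Trim47* (0.0768), *Inhbb* (0.0783), *Map3k21* (0.0980) and *Tmem184a* (0.0984). Their log2 fold changes lay between 1.97 and 2.28, around that of *Kitl*. *Inhbb*, which encodes an inhibin and activin subunit, had 12.1 ± 0.183 and 54.8 ± 6.59 CPM (SD, n = 2 each). The nearest to *Kit* were *Gdf11* (0.0298), *Usb1* (0.0378), *Faxc* (0.0385), *Olfr1330* (0.0419) and *Ntrk3* (0.0425), with log2 fold changes between -1.13 and -1.01, close to the fold limit. Calls of *Gdf11*, *Usb1*, *Faxc* and *Olfr1330* were each lost without control replicate 2 and without *Cnot3*-cKO replicate 1, where they lay between -1.03 and -0.93. That of *Olfr1330* was also lost without *Cnot3*-cKO replicate 2 (-1.11, edgeR adjusted p = 0.0110), and all of these, with *Ntrk3* (-0.97), lost theirs with scaling to the germ cell list. Calls of *Gdf11* and *Usb1* were also lost with upper quartile scaling and with library size only, and that of *Olfr1330* with library size only (-0.98). *Usb1* further lost its call at a mean count of at least 50 (-0.98) and with thinning (-0.998). With 4 libraries in 2 groups, such likeness rests mostly on the size of the difference between the groups.

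The genomic neighbours of the pair were read last. Upstream of *Kitl*, *Csl*, 256 kilobases away, was not called (log2 fold change -0.49, edgeR adjusted p = 0.210), while *Dusp6*, the negative regulator described with the pathway, lies 748.1 kilobases away. The 2 nearest downstream genes, *Gm4301* and *Gm4302*, had 0 reads in every library. Around *Kit* lie the related receptor genes *Pdgfra*, 376.7 kilobases upstream, and *Kdr*, 276.1 kilobases downstream. *Pdgfra* had 32.9 ± 1.46 and 49.6 ± 8.58 CPM (SD, n = 2 each; log2 fold change 0.60, edgeR adjusted p = 0.00766) and did not pass the fold limit, and *Kdr* was called higher as given with the endothelial genes. *Gsx2* was too low to be tested, and *Srd5a3*, an enzyme of lipid metabolism, was not called (0.21, edgeR adjusted p = 0.436), and was at 0.36 with scaling to the germ cell list. No tested neighbour of *Kit* was lower in *Cnot3*-cKO cells.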

How the data were processed

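RNA from sorted ID4-EGFP+ cells had been made into libraries with a stranded total RNA kit. The authors filtered reads by quality, aligned them to mm10 with STAR, and deposited raw counts per gene symbol from featureCounts on the GENCODE annotation M24. Options for strand and for reads matching several genes are not given in the sources used here. Coordinates and exon lengths came from GENCODE M21 on GRCm38, the same assembly as mm10, and promoter windows from RefSeq (GRCm38.p6), which matched both members. edgeR 4.0.16 in R 4.3.3 scaled counts with TMM, kept 23952 genes by its default filter and compared 2 *Cnot3*-cKO with 2 control libraries with its quasi-likelihood F test. Calls required a p below 0.01 after Benjamini-Hochberg adjustment over all tested genes, and a fold change above 2. An exact permutation test of 2 libraries against 2 cannot give a p below 0.333, so adjusted p-values rest on the dispersion fitted across genes (biological coefficient of variation 0.145). The floor of detection was 3 counts and covers counting error only. Replicates of a group differed by more than sampling noise (chi-square per degree of freedom 23.0 in controls and 7.26 in *Cnot3*-cKO).

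The members and lists were chosen with earlier results of these data known. Named genes were the pair, *Cnot3*, each called pathway gene, the most abundant tested gene of each list, up to 4 called genes by smallest p of the Sertoli, Leydig, mast, melanocyte, endothelial and differentiating lists, the 5 genes most like each member (average log2 CPM 1 or more, prior count 2), and up to 2 protein-coding neighbours on each side. In the pathway lists, 2 genes were counted but are not reported here by name. Alternatives were 4 other scalings, 2 other expression filters, DESeq2 1.42.0, a replicate block, other thresholds, thinning to 22192964 reads and leaving out each library. The procedure was tested on simulated data. That test gave every gene the same dispersion and did not apply the fold limit of the calls. Figures were drawn with Python 3.11.15 and matplotlib 3.10.9.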

Additional observations from a re-analysis of the deposited data

How the results depend on the processing

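*Kitl* stayed higher and *Kit* lower in *Cnot3*-cKO libraries under each alternative run. With each library left out in turn, the log2 fold change was 2.05 to 2.27 for *Kitl* and -1.16 to -0.96 for *Kit*, and 3.05 to 3.39 for the log2 difference of their ratio per length, which was 3.22 with all 4. Scaling to the germ cell list set the median over all genes at 0.17, and by that construction moved *Kitl* to 2.31 and *Kit* to -0.89. It left 87 genes called lower and turned *Pdgfb* to 0.026, *Plcg1* to 0.012 and the medians of the genes next to KIT to 0.059 and of the germ cell list to 0.10. With library size only, the germ cell median was 0.0063, and leaving out libraries moved that of the genes next to KIT between -0.0885 and 0.063, the higher value without control replicate 1. The median of all genes was -0.0022 with RLE scaling and with DESeq2, -0.0030 at a mean count of at least 50 and between -0.0034 (without *Cnot3*-cKO replicate 2) and 0.0266 with a library left out. No expression filter gave 285 genes lower. An adjusted p under 0.05 gave 1452 higher and 284 lower. No fold limit gave 1488 higher and 1125 lower, and 11 and 9 pathway genes. Of the pathway genes, 9 were lower with no fold limit, against 3 with scaling to the germ cell list, 19 with no expression filter and 14 with the replicate block. Leaving out libraries gave 1 to 2 pathway genes called lower, with 2 without control replicate 2. The replicate block gave 1155 genes higher and 217 lower, with *Kitl* at 2.16 and *Kit* at -1.06. The libraries share only a number, and deviations of those numbered 1 correlated by 0.0641 over 16437 genes. Of the comparisons of named genes with alternatives, 608 kept direction and call, 36 lost a call, 4 gained 1 and 2 changed sign. The cause was not tested, apart from the shift that scaling builds in and the thresholds themselves. Where 1 library remained in a group, it was assumed to vary like the other group. Among named genes, leaving out a library ended calls of *Csf1r*, *Pdgfc*, *Gata2*, *Hpgds*, *Hdc*, *Kdr*, *Meioc*, *Prss50*, *Gdf11*, *Usb1*, *Faxc* and *Olfr1330*, and *Acta2* gained 1.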
